A study of Mus musculus with 8 samples.

Results

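The expression of 10 genes of the circadian clock and of the response to cold was described in 8 coronal sections of mouse brain. The genes were chosen by name and role, with earlier results of these data known. They were 3 period genes (Per1, Per2 and Per3), 2 nuclear receptor repressors (Nr1d1 and Nr1d2), the repressor Ciart, the output factor Dbp, the activator Arntl, and 2 cold-induced RNA-binding proteins (Rbm3 and Cirbp). All 10 were among the 32285 features counted, and together they held 144126 of the 273263080 UMIs (unique molecular identifiers, each marking 1 captured transcript), or 0.0527%. The question asked of them was whether the sections differ in the way that a different time of day or body temperature at collection could make them differ. The labels and methods used here do not state the time of day at which the mice were killed. The methods describe a heating pad that held the rectal temperature of anaesthetised mice constant during recordings of neurovascular coupling, with brains, those for transcriptomics among them, taken afterwards. No temperature is given for single mice at collection.

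The study asked whether removing senescent cells alters the late effects of the chemotherapeutic drug paclitaxel (PTX) on the brain. All mice carried the p16-3MR transgene, in which the promoter of the senescence gene p16 drives a fusion protein with a viral thymidine kinase, so that ganciclovir (GCV) kills cells in which that promoter is active. The labels give every mouse as male and 9 to 10 months old. Sections 10 µm thick were placed on Visium slides, on which each 55 µm spot captures the RNA of several cells, and 2 sections were measured in each of 4 groups. Control mice received vehicle (DMSO with saline). PTX mice received 5 mg/kg of paclitaxel per day for 5 days in 2 cycles 7 days apart and later vehicle. PTX+GCV mice received the same paclitaxel and then 25 mg/kg of ganciclovir per day, and PTX+ABT263 mice the same paclitaxel and then 1.5 mg/kg per day of ABT263, an inhibitor of the BCL-2 family that kills senescent cells without the transgene, each for 5 days in 2 cycles 2 weeks apart. Brains were collected 6 months after the paclitaxel protocol, after perfusion with saline and a rinse in ice-cold buffer. The methods give the perfusion that followed the recordings as ice-cold phosphate-buffered saline, so the cold began before the brain was removed. The controls thus carried the transgene too, no section came from a mouse given GCV or ABT263 without paclitaxel, and the labels leave unsaid whether both sections of a group are from different animals, so p-values measure the spread between sections.

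After filtering, 21328 spots remained, with 19870666 to 42886400 UMIs per section and a median of 7583 to 15715.5 UMIs per spot. The sections labelled PTX+ABT263 stood apart from the other 6 in a check of the sex-linked genes. In the isocortex, the level of Xist, whose RNA silences 1 of the X chromosomes of female cells, was 18.8 and 18.9 CPM (UMI counts per 1000000 UMIs, after TMM scaling, which sets the libraries to a common scale by their bulk of genes) in these sections and between 0 and 0.07 CPM in the other 6. The Y-linked gene Ddx3y was at 0.18 and 0 CPM in them and at 28.0 to 33.3 CPM in the others, and Uty at 0 in both and at 4.17 to 6.51 CPM in the others. These sections also had the highest median share of mitochondrial UMIs per spot, 14.4% and 15.1% against 9.96% to 14.2%, and the lowest TMM factors in the isocortex, 0.957 and 0.899 against 0.989 to 1.06. The part of either in the results was not tested. The sex-linked values go against the label male, so the group is called by its label, every comparison with it carries this difference, and treatment and this difference cannot be told apart. With them left out of the fit, 0 members passed in the 3 comparisons among the other groups.

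The clock is a feedback loop of transcription. ARNTL (also called BMAL1) pairs with CLOCK or NPAS2 and binds E-box sequences in the promoters of Per, Cry, Nr1d1, Nr1d2, Ciart and Dbp. PER and CRY proteins then shut that activity off, the REV-ERB proteins made from Nr1d1 and Nr1d2 repress Arntl through ROR elements, and DBP acts on D-boxes, among them those of period genes. Because these genes peak at different hours, with Arntl about opposite to Dbp and Nr1d1, brains collected at different times of day differ in many of them at once. Per1 is also induced within minutes by neuronal activity and glucocorticoids. Rbm3 and Cirbp encode RNA-binding proteins that rise when temperature falls by a few degrees, follow the daily rhythm of body temperature, and in the case of Rbm3 have been linked to the preservation of synapses.

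The members lie on 8 chromosomes (GENCODE M21 annotation, GRCm38). Per1 is at chr11:69095217-69109960 (plus strand), Per2 at chr1:91415982-91459324 (minus) and Per3 at chr4:151003652-151044665 (minus). Nr1d1 is at chr11:98767932-98775333 (minus), Nr1d2 at chr14:18204054-18239127 (minus), Ciart at chr3:95878503-95882251 (minus), Dbp at chr7:45705088-45710203 (plus) and Arntl at chr7:113207465-113314126 (plus), with Rbm3 at chrX:8138975-8145880 (minus) and Cirbp at chr10:80165985-80172786 (plus). Per3 overlaps Camta1 on the same strand, and Dbp, Nr1d1, Ciart, Arntl and Rbm3 overlap Sphk2, Thra, C920021L13Rik, Gm45355 and Rbm3os on the other strand. Use of strand in the counting is not given in the sources used here, so reads of overlapping genes may not be told apart.

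The promoters were searched for elements of this loop. RefSeq windows (GRCm38.p6) from 250 bases before to 50 bases after the start site were held for 8 of the 10 members, 11 windows in all. In them 6 motifs were searched on both strands. The strings were the E-box CACGTG, which was in 7.15% of all 32851 windows of that length, the E-prime box CACGTT (4.68%), the D-box TTANGTAA (2.32%), the ROR element TAGGTCA (2.61%), the cyclic AMP response element TGACGTCA (1.79%) and the mild cold response element TCCCCGCC (5.38%). None of the strings contains another, and the E-box and E-prime box differ only in the last base. The 250 bases upstream of Ciart, Per3, Per1 and Cirbp are shown because they hold, in capitals, the matches closest to the known wiring of these genes, written 5′ to 3′ on the strand of the gene. Ciart held 3 E-boxes, at -116, -58 and -44 from the start site. Per3 held 2 D-boxes, at -205 and -158. Per1 held 1 E-box at -166 and Cirbp 1 mild cold response element at -247.
Ciart, chr3:95882229-95882478, minus strand: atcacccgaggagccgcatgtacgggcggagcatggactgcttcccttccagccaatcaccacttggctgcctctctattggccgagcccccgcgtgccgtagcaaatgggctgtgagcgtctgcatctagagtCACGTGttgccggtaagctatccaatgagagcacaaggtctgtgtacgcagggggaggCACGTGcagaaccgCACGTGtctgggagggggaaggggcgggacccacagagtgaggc
Per3, chr4:151044666-151044915, minus strand: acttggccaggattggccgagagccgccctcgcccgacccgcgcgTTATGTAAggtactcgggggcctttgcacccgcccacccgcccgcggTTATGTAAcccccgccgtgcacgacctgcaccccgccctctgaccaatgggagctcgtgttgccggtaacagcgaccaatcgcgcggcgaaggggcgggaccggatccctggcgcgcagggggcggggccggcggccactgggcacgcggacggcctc
Per1, chr11:69098699-69098948, plus strand: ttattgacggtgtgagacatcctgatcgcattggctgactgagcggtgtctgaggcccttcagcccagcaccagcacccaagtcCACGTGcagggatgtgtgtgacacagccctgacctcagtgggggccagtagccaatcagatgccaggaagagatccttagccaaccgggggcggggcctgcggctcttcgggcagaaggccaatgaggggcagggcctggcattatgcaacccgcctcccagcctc
Cirbp, chr10:80167589-80167838, plus strand: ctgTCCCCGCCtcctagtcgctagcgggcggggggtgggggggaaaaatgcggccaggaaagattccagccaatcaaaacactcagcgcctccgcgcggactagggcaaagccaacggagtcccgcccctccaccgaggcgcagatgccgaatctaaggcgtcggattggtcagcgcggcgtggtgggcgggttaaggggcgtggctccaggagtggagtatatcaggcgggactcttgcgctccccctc
Arntl, ROR element at +30 of the window chr7:113207261-113207560, plus strand: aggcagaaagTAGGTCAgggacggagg

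The ROR element of Arntl is shown because it is the sequence that NR1D1 and NR1D2 recognise. Both Arntl windows also held the mild cold response element letters, and the Nr1d1 window held 1 E-prime box at -28. The windows of Dbp and Nr1d2 and the second windows of Per1 and Cirbp held none of the 6 strings, and the cyclic AMP response element was in none of the 11 windows. A match of letters describes the sequence and is no evidence of a bound factor.

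None of the period genes passed the test in any comparison, although Per2 and Per3 spanned more between sections than the median gene. In the isocortex, Per1 was at 77.6 and 92.7 CPM in the Control sections, 77.6 and 86.7 in the PTX sections, 75.8 and 93.6 in the PTX+GCV sections, and 79.9 and 78.9 in the PTX+ABT263 sections. The 4 groups overlapped, and the highest section was 1.24 times the lowest, against a median of 1.39 over all genes, 1.85 for Per2 and 1.86 for Per3. Per2, the period gene that couples most closely to the phase of the loop, was at 13.9 and 16.8 CPM (Control), 18.7 and 20.6 (PTX), 21.3 and 25.7 (PTX+GCV), and 15.8 and 18.4 (PTX+ABT263). Both PTX+GCV sections were above both sections of every other group, and the lowest section was a Control section. The log2 difference between PTX+GCV and Control was 0.62 (95% interval 0.30 to 0.93, adjusted p = 0.235, edgeR), and that between PTX and Control was 0.34 (SE 0.15, adjusted p = 0.363). Without the PTX+ABT263 sections in the fit the former was also 0.62 (adjusted p = 0.257). Per3 was at 17.9 and 15.7 CPM (Control), 22.7 and 17.7 (PTX), 18.8 and 19.3 (PTX+GCV), and 13.6 and 12.3 (PTX+ABT263). The PTX+ABT263 sections were the lowest of all, with a log2 difference of -0.64 from PTX that missed the threshold (SE 0.14, adjusted p = 0.0797).

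**Figure D1:**
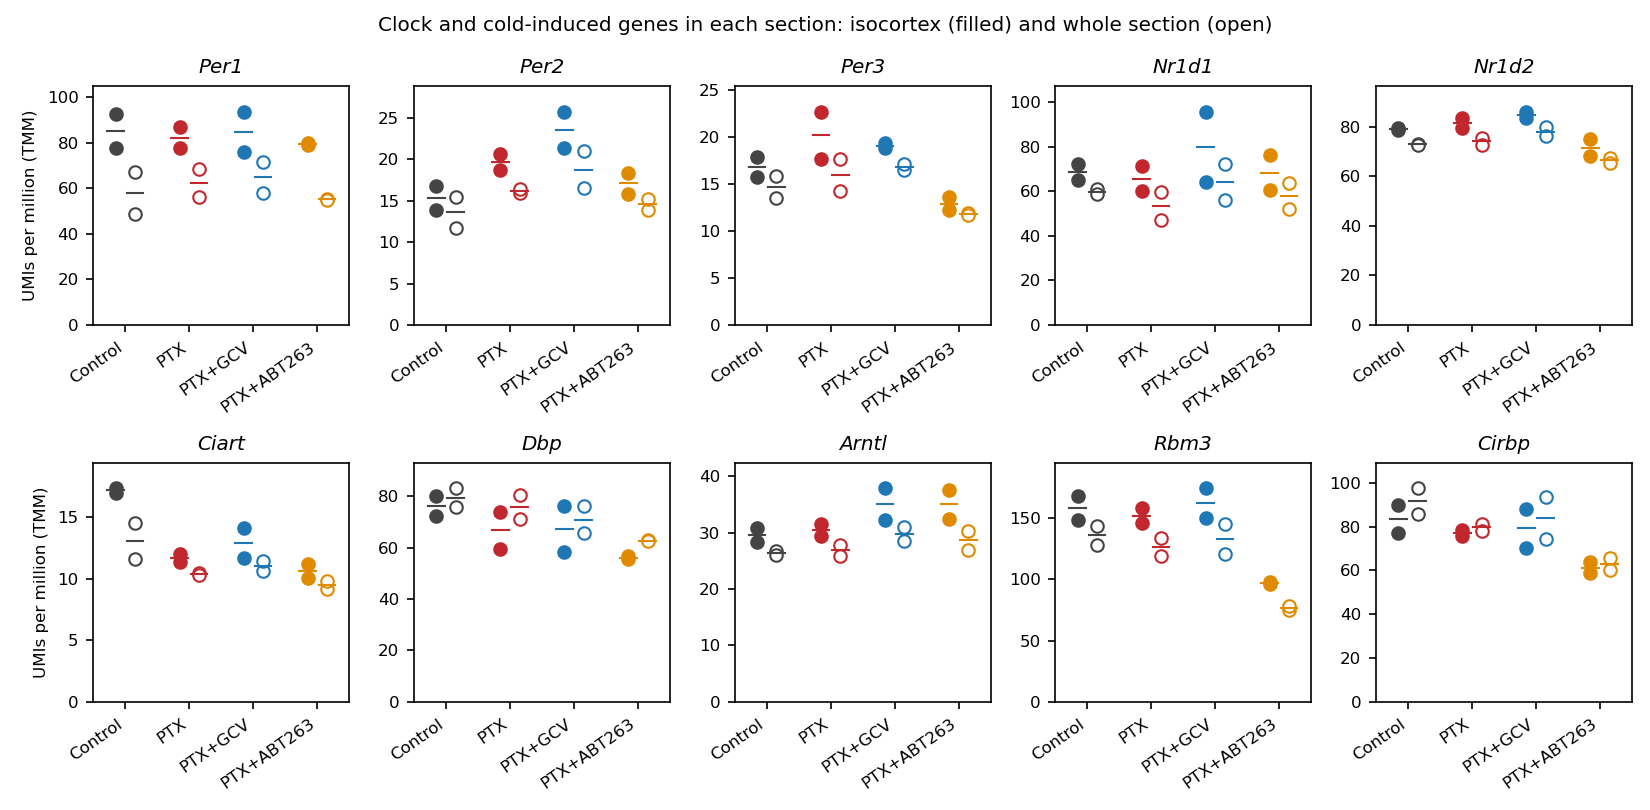
Level of each of the 10 genes in CPM after TMM scaling (vertical axis, from 0) in the 8 sections by group, with filled points for the isocortex, open points for the whole section and a line at the mean of the 2 sections. Rbm3 lay at 96.2 and 97.7 in the isocortex of the sections labelled PTX+ABT263 and at 146 or above in the other 6. In the isocortex Per1 and Nr1d1 overlapped in all groups.

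The nuclear receptor repressors, which carry the second arm of the loop, showed no difference that passed. Nr1d1 (REV-ERBα) was at 72.1 and 65.2 CPM (Control), 60.0 and 71.3 (PTX), 95.7 and 64.2 (PTX+GCV), and 60.3 and 76.1 (PTX+ABT263). The 2 sections of PTX+GCV held the highest value and one of the lower values, and all groups overlapped. Nr1d2 (REV-ERBβ) was at 79.6 and 78.8 CPM (Control), 79.6 and 83.5 (PTX), 86.1 and 83.7 (PTX+GCV), and 75.1 and 68.1 (PTX+ABT263). Its range was narrow (highest over lowest 1.26), with the PTX+ABT263 sections below the others by a log2 difference of -0.19 from PTX (SE 0.08, adjusted p = 0.441).

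Ciart, the repressor with 3 E-boxes in its promoter, was at 17.0 and 17.4 CPM (Control), 12.03 and 11.3 (PTX), 14.1 and 11.7 (PTX+GCV), and 10.1 and 11.2 (PTX+ABT263). All 6 sections from mice given paclitaxel were below both Control sections. The log2 difference from Control was -0.56 for PTX (SE 0.15, adjusted p = 0.117), -0.44 for PTX+GCV (SE 0.15, adjusted p = 0.45) and -0.70 for PTX+ABT263 (SE 0.15, adjusted p = 0.069), so none passed. With the PTX+ABT263 sections left out of the fit the first 2 were -0.56 (adjusted p = 0.139) and -0.43 (adjusted p = 0.509). These values rest on 93 to 172 Ciart UMIs per section in the isocortex.

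Dbp, a PAR bZIP transcription factor whose rhythm is among the strongest of the clock outputs, was at 80.2 and 72.5 CPM (Control), 59.5 and 74.0 (PTX), 76.3 and 58.2 (PTX+GCV), and 55.5 and 56.7 (PTX+ABT263). The PTX+ABT263 sections were the lowest, and the other 3 groups overlapped. The log2 difference of PTX+ABT263 was -0.25 from PTX (SE 0.12, adjusted p = 0.475) and -0.44 from Control (SE 0.13, adjusted p = 0.151). The highest section was 1.44 times the lowest. Arntl, the activator, was at 30.9 and 28.3 CPM (Control), 31.6 and 29.4 (PTX), 32.3 and 37.9 (PTX+GCV), and 32.5 and 37.6 (PTX+ABT263). The PTX+GCV and PTX+ABT263 sections were all above those of Control and PTX, by log2 differences of 0.26 and 0.25 from Control (adjusted p = 0.593 and 0.391). By log2 difference, Arntl lay above and Dbp below Control in every group given paclitaxel, not only in PTX+ABT263. These differences were 0.05 and -0.19 in PTX, and 0.26 and -0.19 in PTX+GCV. None of them passed. Nr1d1, whose peak is also about opposite to that of Arntl, differed from Control by -0.006 in PTX+ABT263.

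Under the settings reported here, Rbm3 was the single member that passed the test between groups, and it was lower in the sections labelled PTX+ABT263. Not passing does not show that a member was unchanged. In the isocortex of PTX+ABT263 against Control, unadjusted 95% intervals were also wholly negative for Ciart (-1.02 to -0.37), Cirbp (-0.68 to -0.21), Dbp (-0.71 to -0.17) and Per3 (-0.70 to -0.03). Those of Per1, Per2, Nr1d1, Nr1d2 and Arntl held both signs. Rbm3 in the isocortex was at 168 and 148 CPM (Control), 158 and 146 (PTX), 175 and 151 (PTX+GCV), and 96.2 and 97.7 (PTX+ABT263). The last 2 sections were below all the others, which overlapped among themselves. Against PTX, Rbm3 fell by 0.65 on the log2 scale (SE 0.09, 95% interval of the difference -0.85 to -0.45, adjusted p = 0.00399, edgeR), and against Control by 0.70 (SE 0.10, interval -0.91 to -0.50, adjusted p = 0.00229). In the whole section it was at 144 and 129 CPM (Control), 134 and 119 (PTX), 146 and 121 (PTX+GCV), and 75.2 and 78.5 (PTX+ABT263), and fell by 0.72 against PTX (adjusted p = 0.0105) and by 0.82 against Control (adjusted p = 0.00415). Over 15 alternative settings or left-out sections, the log2 difference from Control in the isocortex stayed between -0.83 and -0.62 and passed in 15. The isocortical call against PTX was lost without PTX section 1 (adjusted p = 0.0734) and without PTX+ABT263 section 2, that against PTX in the whole section without PTX section 1 (adjusted p = 0.112) or either PTX+ABT263 section, and that against Control in the whole section without PTX+ABT263 section 1 (adjusted p = 0.0505). Among the other groups, Rbm3 differed by -0.05 between PTX and Control (adjusted p = 0.861) and by 0.04 between PTX+GCV and Control (adjusted p = 0.95), and with the PTX+ABT263 sections left out of the fit by -0.05 and 0.04.

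The call for Rbm3 stands beside the sex-linked difference. Rbm3 is on the X chromosome. Of 458 X-linked genes tested in the isocortex, 4 passed against PTX (3 higher and Rbm3 lower) and 3 against Control (2 higher and Rbm3 lower), while 21 and 44 of 13930 genes outside X and Y passed. The median log2 difference of the X-linked genes was -0.006 against PTX and -0.034 against Control. In bulk counts of this kind, fewer cells of a type and less RNA per cell cannot be told apart. Summed markers of excitatory neurons were at 6945 to 7064 CPM in the PTX+ABT263 sections and at 6956 to 7269 CPM in the others, and those of oligodendrocytes at 3218 to 3560 against 2563 to 3151 CPM, each of 8 genes with none at 0 in any section. Endothelial markers (8 genes, none at 0) summed to 838.6 to 860.8 CPM in the PTX+ABT263 sections and 602.5 to 835.2 CPM in the others, and those of inhibitory neurons were at 2192 to 2532 against 1709 to 2419 CPM. Over all cell type lists, the smooth muscle genes Myh11 (-1.98, adjusted p = 0.0293) and Acta2 (-1.42, adjusted p = 0.0412) and the hypothalamic peptide genes Avp (-3.93) and Pmch (5.17) passed against PTX, and Lamp5 (0.65), Pvalb (0.71) and Cldn5 (0.49) against Control. The summed mural markers, which include Myh11 and Acta2, fell far less. They were at 112.7 to 114.2 CPM in PTX+ABT263, 124.0 to 128.4 in PTX and 113.6 to 123.2 in Control. The part of these differences in the level of Rbm3 was not tested.

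Cirbp, the second cold-induced RNA-binding protein, was at 90.0 and 77.1 CPM (Control), 78.4 and 75.7 (PTX), 87.8 and 70.4 (PTX+GCV), and 58.6 and 63.9 (PTX+ABT263). As for Rbm3, the PTX+ABT263 sections were below all the others, but the difference did not pass. It was -0.33 on the log2 scale from PTX (SE 0.11, adjusted p = 0.236) and -0.44 from Control (SE 0.11, adjusted p = 0.0999), and in the whole section -0.54 from Control (adjusted p = 0.0825). Scaling by total counts or thinning, described under the processing, brought it past the threshold against Control in the isocortex.

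Counted over the 10 members, the test called 0 in the isocortex between PTX and Control, where 0.264% of 14395 genes were called, 0 between PTX+GCV and PTX (0.0208%), and 0 between PTX+GCV and Control, where 0% of all genes were called and 8.28% had an unadjusted p below 0.05, 3 of the members among them. It called 1, Rbm3, between PTX+ABT263 and PTX (background 0.208%, of which 0.125% lower) and between PTX+ABT263 and Control (0.361%, of which 0.243% lower). At an unadjusted p below 0.05 there were 2, 1, 3, 4 and 5 members in the comparisons PTX with Control, PTX+GCV with PTX, PTX+GCV with Control, PTX+ABT263 with PTX, and PTX+ABT263 with Control, and in the last 2 all were lower in PTX+ABT263. The corresponding shares of all genes were 12.4%, 7.0%, 8.28%, 10.8% and 13.1%, with 5.47% and 6.42% lower in the last 2. The median log2 difference of the members was -0.055, 0.074, 0.069, -0.193 and -0.256 in the same order, while that of all genes tested was within 0.01 of 0 in each. A test of any difference among the 4 groups called Rbm3 alone (adjusted p = 0.00237 in the isocortex and 0.0092 in the whole section, backgrounds 0.681% and 0.498%, the latter call lost without either PTX+ABT263 section, at adjusted p up to 0.0854), and 6 members had an unadjusted p below 0.05 in the isocortex, beside 14.8% of all genes. In the whole section the 5 comparisons called the same single member where PTX+ABT263 was compared, with backgrounds of 0.138% against PTX (0.054% lower) and 0.198% against Control (0.096% lower), and 0 members elsewhere, with backgrounds of 0.126%, 0.024% and 0%. The comparisons share control sections, so their values are not independent.

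**Figure D2:**
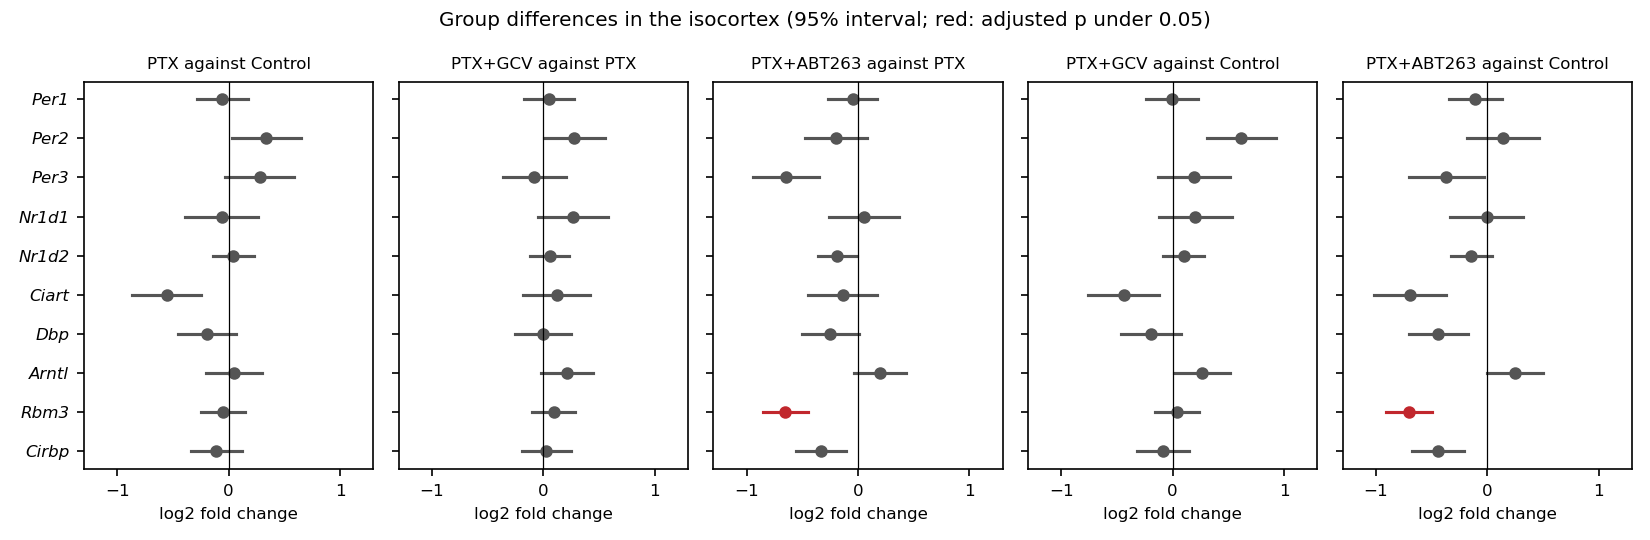
Log2 fold change of each gene in the isocortex (horizontal axis) for 5 comparisons, with 95% intervals from edgeR and red where the adjusted p was below 0.05. Rbm3 was the single red point, at -0.65 against PTX and -0.70 against Control in the panels of PTX+ABT263.

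Whether members moved together across sections was asked in the isocortex for 8 pairs, Arntl with each of 7 other clock members and Rbm3 with Cirbp. Over the 8 sections no pair with Arntl passed (exact permutation tests over 40320 pairings, Benjamini-Hochberg over 8). Arntl with Dbp had a Pearson r of -0.67 (exact p = 0.0891, adjusted p = 0.356) and a Spearman rho of -0.62, and r was -0.44 without the 2 sections farthest from the median of Arntl, PTX+ABT263 section 2 and PTX+GCV section 2. Arntl with Ciart gave r = -0.52 (adjusted p = 0.48) and Arntl with Per2 r = 0.47 (adjusted p = 0.484), while Arntl with Nr1d1 and Per1 gave r = 0.06 and -0.04. Without those 2 sections r was 0.02 for Per2 and -0.91 for Per1 (exact permutation p = 0.0194, not adjusted), so both values rest on them. For Rbm3 and Cirbp the sections labelled PTX+ABT263 formed a cluster of their own, so r was taken within the other 6, where it was 0.87 (exact permutation p = 0.0389, adjusted p = 0.311) with a rho of 0.77. Without those sections no pair passed the correction.

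By similarity over the 8 isocortical values, 14395 genes compared, the genes most like Dbp were Ift122 (Pearson r 0.976), Snx13 (0.970) and Cpsf1 (0.962). The genes most like Rbm3 were Zmym5 (0.970), Hexdc (0.970) and Uty (0.968). Uty is Y-linked and was at 0 in both sections labelled PTX+ABT263. These are the highest of very many correlations over 8 points and describe likeness only.

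The members differed widely by area of the section. Areas came from clusters of spots made without the members, 12 clusters grouped into 11 areas and named from marker genes where these allowed. The largest were isocortex (4960 spots), an unnamed cluster led by Trim54 (3424) and thalamus (3350), and the smallest habenula (179). Levels below are CPM of the UMIs of the area, without TMM scaling, as mean ± SD over 8 sections, and small areas carry counting error. Dbp was highest in the striatum, at 145 ± 15.8, followed by the thalamus at 96.0 ± 16.7 and an unnamed cluster led by Ucn3 at 82.9 ± 12.1, with the isocortex at 66.8 ± 11.95 and the hippocampus lowest at 46.7 ± 8.26. The striatum exceeded the hippocampus 3.11-fold and in 8 of 8 sections. On the maps of spots, each pooled with its neighbours, 403 spots held 2 or more Dbp UMIs per 10000 UMIs. Of them 180 were in the striatum, 13.5% of its spots, and 114 in the fiber tracts, 4.57% of theirs. The mean level in the fiber tracts was low, at 55.8 ± 9.14. Their spots held few UMIs, with a median 0.224 times that of all spots of the section, against 0.794 for the striatum. The part of this low depth in the 114 spots was not tested.

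**Figure D3:**
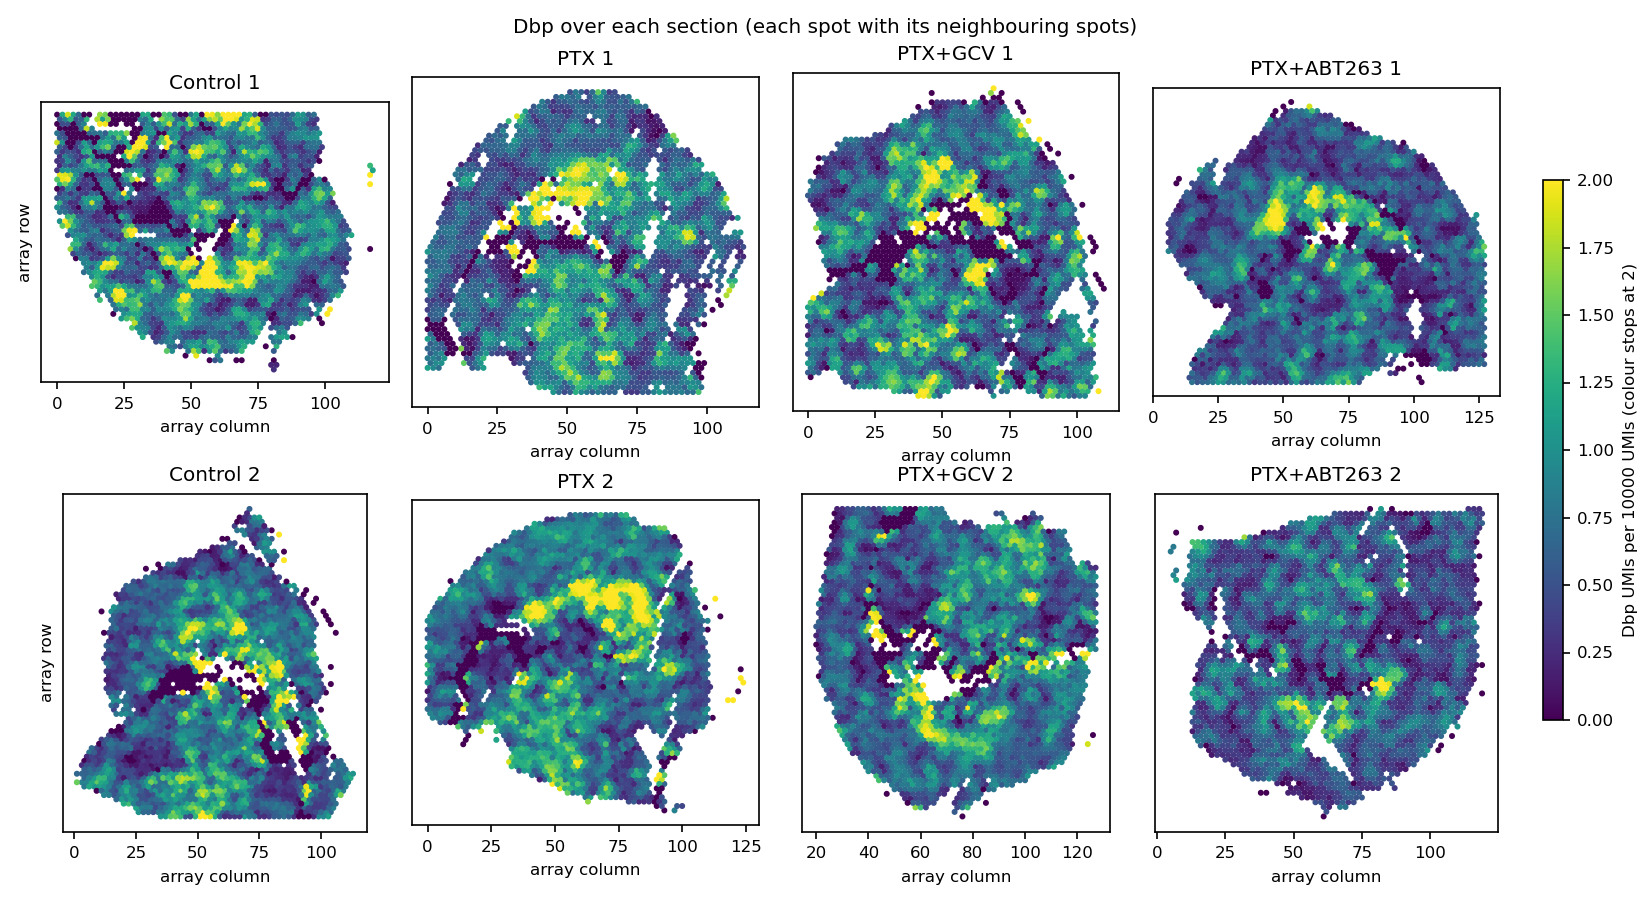
Dbp in each section by group and section number, with each spot pooled with its neighbours and coloured by Dbp UMIs per 10000 UMIs (colour stops at 2). Axes are positions on the slide's array, and sections lie in different orientations. Of the 403 spots at the top colour, 180 belonged to the striatum.

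The period genes each had their own order of areas. Per1 was highest in the isocortex (83.0 ± 9.28) and then the striatum (68.5 ± 16.3) and thalamus (62.7 ± 15.9), and lowest in the reticular thalamus and pallidum (30.4 ± 14.2) and the hypothalamus (30.4 ± 6.35). Per2 was highest in the striatum (22.0 ± 5.93), the hippocampus (20.6 ± 2.45) and the isocortex (19.0 ± 4.32), and low in the thalamus (8.45 ± 1.88), the fiber tracts (7.00 ± 2.58) and the reticular thalamus and pallidum (5.14 ± 3.74, 20 UMIs in all). Per3 was highest in the hippocampus (19.0 ± 7.06) and lowest in the reticular thalamus and pallidum (5.84 ± 3.59, 23 UMIs in all). In each of the 3 genes the highest area was above the lowest in 8 of 8 sections, 2.73-fold, 4.29-fold and 3.26-fold.

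The thalamus led 3 of the other clock members. Nr1d1 was at 86.2 ± 12.4 in the thalamus, 70.7 ± 12.8 in the isocortex and 31.2 ± 12.99 in the habenula, the lowest. Nr1d2 was at 116 ± 10.95 in the thalamus and 120 ± 37.2 in the reticular thalamus and pallidum, with 50.7 ± 6.75 in the cluster led by Trim54. Ciart was at 16.1 ± 2.84 in the thalamus and at 5.94 ± 1.05 in the hippocampus, while the choroid plexus held only 3 Ciart UMIs over the 8 sections. Arntl was at 35.01 ± 3.27 in the thalamus and at 13.1 ± 11.3 in the choroid plexus (33 UMIs in all), higher in 7 of 8 sections.

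The cold-induced genes were ordered differently from each other. Rbm3 was highest in the isocortex (144 ± 35.2), thalamus (132 ± 32.3) and hippocampus (131 ± 32.1) and lowest in the fiber tracts (81.9 ± 20.7). Cirbp was highest in the habenula (124 ± 30.6), hypothalamus (105 ± 12.3) and the cluster led by Ucn3 (102 ± 21.3) and lowest in the choroid plexus (43.6 ± 12.7). The SDs include the PTX+ABT263 sections.

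Neighbours in these orders could not be separated. Of 100 neighbouring pairs, 10 for each member, 0 passed an exact sign-flip permutation test over sections after adjustment. The smallest p over 8 sections is 0.0078, which 5 pairs reached, and 16 pairs at that value would have been needed for any to pass. The 5 were Dbp between striatum and thalamus (log2 difference 0.61 ± 0.21), Per2 between hypothalamus and thalamus (0.42 ± 0.25), Nr1d1 between isocortex and the cluster led by Trim54 (0.33 ± 0.15), Cirbp between the cluster led by Ucn3 and thalamus (0.31 ± 0.06) and Rbm3 between isocortex and thalamus (0.12 ± 0.08), each higher in 8 of 8 sections.

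**Figure D4:**
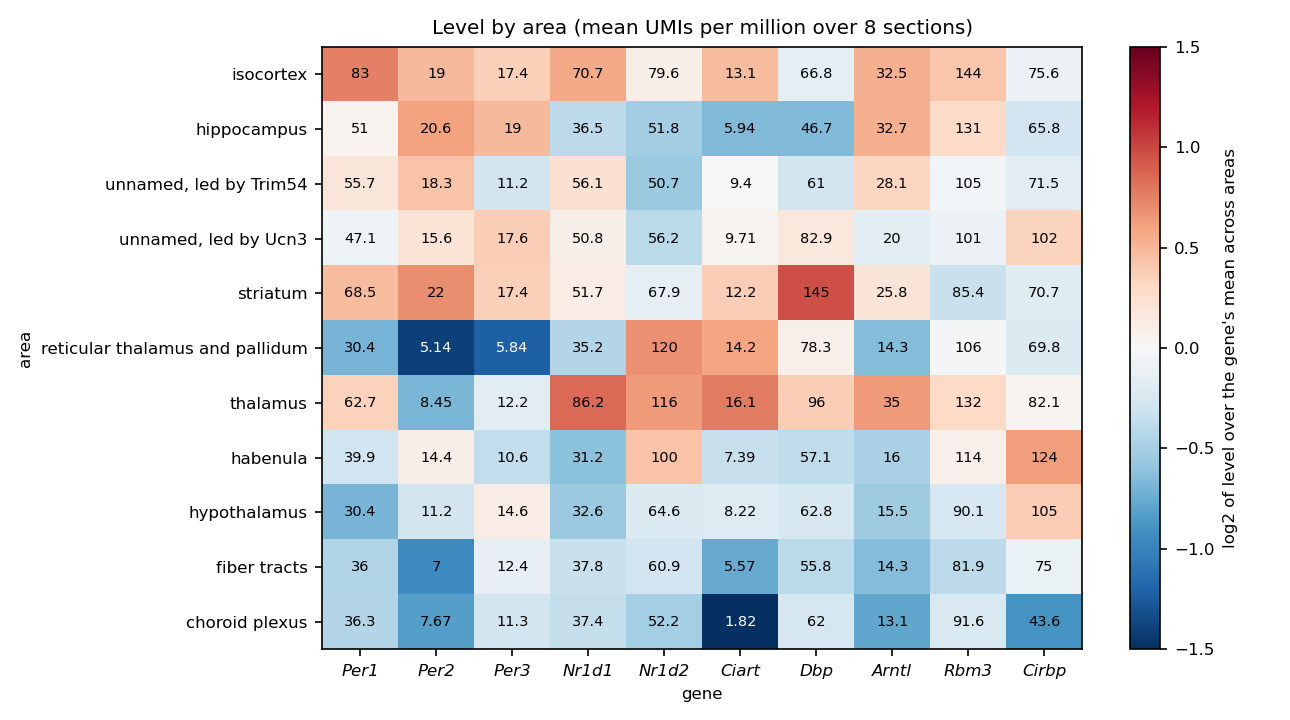
Mean level over 8 sections in CPM of each area (numbers) for 10 genes (columns) in 11 areas (rows), coloured by log2 of the level over that gene's mean across areas. Dbp stood highest in the striatum at 145 and Cirbp in the habenula at 124.

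The lower Rbm3 in the sections labelled PTX+ABT263 was seen across areas. With each area scaled so that its median gene matched between sections, both PTX+ABT263 sections lay below the range of the other 6 in 9 of 11 areas for Rbm3, all except the choroid plexus and the fiber tracts, and in 7 of 11 for Cirbp. Of all genes with at least 80 UMIs in an area, the share that lay below in the same sense was 7.04% in the isocortex, 4.09% in the hippocampus, 4.57% in the thalamus, 4.44% in the hypothalamus, 4.12% in the striatum, 4.81% and 4.38% in the clusters led by Trim54 and Ucn3, 3.2% in the reticular thalamus and pallidum, 2.05% in the habenula, 2.68% in the fiber tracts and 4.39% in the choroid plexus. Rbm3 was at 49.7 to 51.4 scaled CPM in the hypothalamus of these sections against 85.3 to 125 in the others, at 87.3 to 88.3 against 127 to 164 in the thalamus, and at 82.4 to 88.6 against 121 to 152 in the hippocampus. The ratio of means ran from 0.463 in the striatum to 0.666 in the fiber tracts. Cirbp in the thalamus was at 57.5 to 60.8 against 74.2 to 98.5. Dbp and Nr1d2 lay below in 4 of 11 areas each, Per3 in 3 of 8, Ciart in 3 of 7, Per1 in 1 of 10, and Per2 and Nr1d1 in 0 of 7 and 0 of 10, while Arntl lay above in 1 of 8, the fiber tracts, where 3.11% of all genes did. In the isocortex 6 members lay below (Per3, Dbp, Nr1d2, Ciart, Rbm3 and Cirbp), beside 7.04% of all genes.

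**Figure D5:**
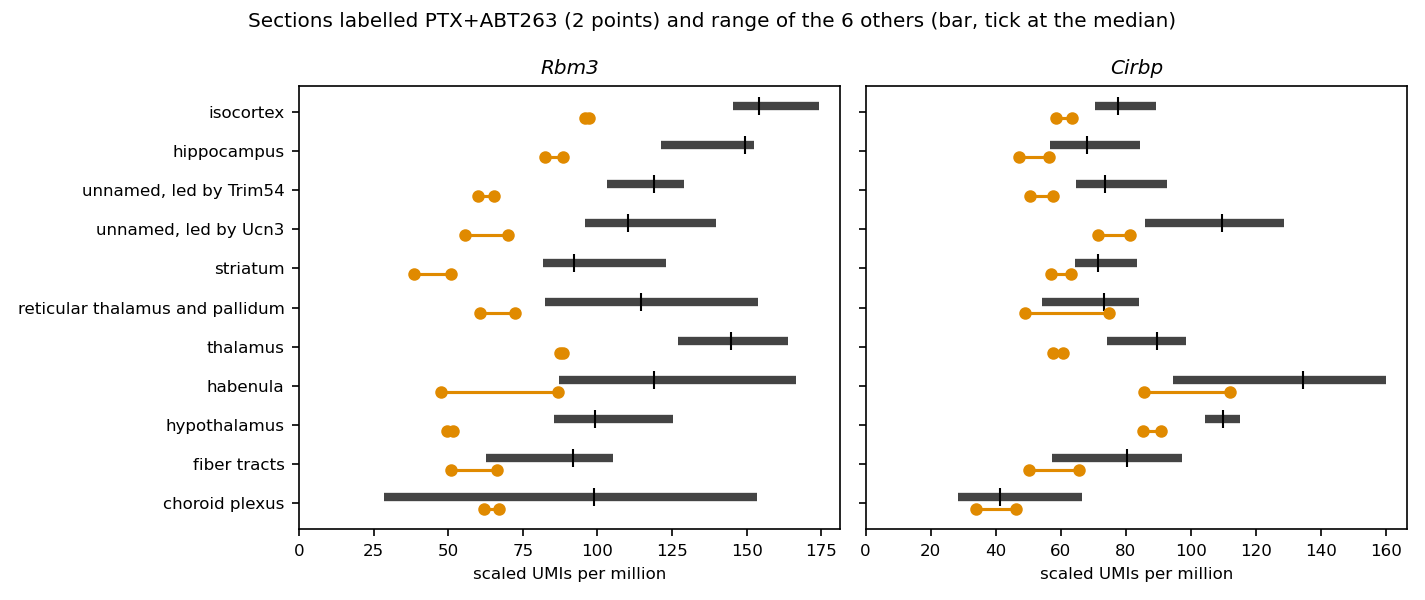
Rbm3 and Cirbp in 11 areas in scaled CPM (horizontal axis), with the 2 sections labelled PTX+ABT263 as joined points and the range of the other 6 as a bar with a tick at the median. The points for Rbm3 lay left of the bar in 9 areas, for example at 95.9 and 97.3 against 146 to 174 in the isocortex.

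Whether a group difference was larger in the isocortex than elsewhere was tested on the difference between the isocortex and the rest of each section (limma). None of the 10 members passed in any of the 5 comparisons, and 0% of 14349 genes did. For Rbm3 this difference of differences was 0.08 for PTX+ABT263 against PTX (SE 0.09, adjusted p = 0.972) and 0.22 against Control (SE 0.09, adjusted p = 0.625). For Per3 it was -0.35 against PTX (SE 0.10, adjusted p = 0.941).

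Other genes of the same pathways were read as lists in the isocortex. Of 26 other clock genes, among them Clock, the Cry genes and the remaining PAR bZIP and Bhlhe factors, 0 passed in each of the 5 comparisons, and Bhlhe40, an E-box repressor, passed the test of any difference among groups (adjusted p = 0.0424). Tef, a PAR bZIP relative of Dbp, differed by -0.42 between PTX+ABT263 and Control (adjusted p = 0.0974). Of 10 RNA-binding relatives of Rbm3 and Cirbp 0 passed, the nearest being Srsf7 at -0.29 against PTX (adjusted p = 0.249). Of 18 heat shock genes, which respond to warming, 0 passed, the nearest being the cochaperone Ahsa1 at 0.41 between PTX+ABT263 and Control (adjusted p = 0.143). Of 14 glucocorticoid targets tested 1 passed in the 5 comparisons, Ddit4, a stress-induced inhibitor of mTOR, which fell by 0.90 on the log2 scale against Control in PTX+ABT263 (adjusted p = 0.00726). The metallothionein gene Mt1 and Ddit4 passed the test of any difference (adjusted p = 0.0197 and 0.0211). The summed level of this list lay the other way from Ddit4, at 1994 to 2098 CPM in PTX+ABT263 and 1468 to 1940 CPM in the other sections, and its median log2 difference was 0.153 against PTX and -0.038 against Control.

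The immediate early genes, which neurons transcribe on activation and which share activity-dependent induction with Per1, were the list with most calls. Of 14, 4 were lower in PTX than in Control, with log2 differences of -0.67 for Egr4 (adjusted p = 0.00663), -0.67 for Arc, -0.83 for Fosb and -1.03 for Junb. In PTX+ABT263 11 were lower than in Control, among them Arc at -1.18 (adjusted p = 0.000278) and Junb at -1.59 (adjusted p = 0.00146). Scaling by total counts moved the median log2 difference of all genes to 0.01 for PTX and -0.13 for PTX+ABT263 against Control. The part of scaling in the values of these genes was not tested. The calls between PTX and Control were all lost without PTX section 2, where 0 genes passed, and without PTX section 1 only 5 of all genes were lower. Without PTX+ABT263 section 1 or 2, 16 or 10 of all genes were lower than in Control, against 35. None of the 14 passed for PTX+ABT263 against PTX or for PTX+GCV against Control, and the median log2 difference of the list was -0.678 for PTX and -1.066 for PTX+ABT263 against Control. Summed over the list, the level was 1820 to 2263 CPM in Control, 1277 to 1585 in PTX, 1487 to 1518 in PTX+GCV and 1224 to 1264 in PTX+ABT263. Per1 itself differed by -0.06 between PTX and Control (adjusted p = 0.872) and by -0.11 between PTX+ABT263 and Control (adjusted p = 0.74).

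The suprachiasmatic nucleus, the seat of the central clock, formed no area of its own. Of 10 genes typical of it, 9 could be tested in the whole section and 0 passed. In the isocortex 4 could be tested and 1 passed, Avp, the vasopressin gene, which was lower in PTX+ABT263 than in PTX by a log2 difference of -3.93 (adjusted p = 0.000587) and in PTX+GCV than in PTX by -3.78 (adjusted p = 0.00291). These isocortical differences rest on few Avp UMIs outside PTX. The sections held 42 and 10 (Control), 215 and 185 (PTX), 12 and 9 (PTX+GCV), and 4 and 16 (PTX+ABT263). In the whole section Avp was at 139 and 2.44 CPM (Control), 308 and 242 (PTX), 10.2 and 7.08 (PTX+GCV), and 2.92 and 5.21 (PTX+ABT263). The 2 Control sections alone thus lay far apart, and the labels do not give the plane of each section.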

How the data were processed

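The 10 members and all gene lists were chosen with earlier results of these data known. The authors made the deposited tables of raw UMI counts per spot and feature with Space Ranger, whose version is 1.2.1 and genome mm10 according to the headers, and the submitters' notes also name Seurat 4.0. Aligner settings beyond this are not given in the sources used here. Spots under tissue with at least 200 genes and at most 30% mitochondrial UMIs were kept, which left out 768 spots. A spot can hold several cells, and the sections shared 970 of 4794 barcodes, which are positions on the slide.

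Sections were normalised with SCTransform and integrated by reciprocal PCA (Seurat 5.3.0) on 2000 features, 0 members among them, with 20 components and a resolution of 0.15, in place of the default integration, which could not be run. Clusters were named as areas from marker lists.

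UMIs were summed per section and area and tested with edgeR 4.0.16 (R 4.3.3), a quasi-likelihood fit of all 8 sections in 4 groups with TMM scaling and filtering by expression, with Benjamini-Hochberg adjustment over all genes and a threshold of 0.05. The isocortex was set against the rest with limma 3.58.1 on log2 values (prior count 2). Relations and neighbouring areas were tested by exact two-sided permutation. Genes named are the members, the leading genes of each list by p or call, and the 3 most like Dbp and Rbm3. On simulated data the isocortex fit of 14395 genes recovered 43.3%, 67.2% and 97% of genes changed 1.5-, 2- and 4-fold.

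Replicate sections differed beyond sampling noise (chi-square per degree of freedom 14.5 to 23.0). Alternatives were DESeq2 1.42.0, total-count scaling, no filter, thinned counts, all spots under tissue, other clusters, 2 groups in the fit, a replicate block and leaving out sections. The intervals given are those of log2 differences from the edgeR quasi-likelihood fit. They include the spread between sections and are not limited to counting error.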

Additional observations from a re-analysis of the deposited data

How the results depend on the processing

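Of the counts of members called, 149 of 184 were within 1.5 times the reported value under the alternatives. With no filter on low counts, the isocortex gave 1 member between PTX and Control (Ciart), 1 between PTX+GCV and Control (Per2), 3 between PTX+ABT263 and PTX (Per3, Rbm3 and Cirbp), 4 between PTX+ABT263 and Control (Dbp, Ciart, Rbm3 and Cirbp) and 6 in the test of any difference, and the whole section gave 1 between PTX+GCV and Control (Per2), 1 between PTX+GCV and PTX (Nr1d1), 4 for PTX+ABT263 against PTX, 4 for PTX+ABT263 against Control and 6 for any difference. In that order, total-count scaling gave 3, 4 and 6 in the isocortex and 2, 2 and 5 in the whole section. Thinning gave 2 for PTX+ABT263 against Control and 2 in any difference in the isocortex, DESeq2 2 and 2 in the whole section, and a fit of 2 groups 2 against Control there. Leaving out 1 section gave 0 to 2 members for PTX+ABT263 against Control in the whole section, 0 to 2 for PTX+ABT263 against PTX in the isocortex and 0 to 1 in the whole section, and 1 to 2 (isocortex) and 0 to 2 (whole section) in any difference. Without the PTX+ABT263 group 0 relations passed, against 1 in all 8 sections, Rbm3 with Cirbp. The cause was not tested. No value that passed the test changed direction.

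Over all genes in the isocortex, 52 were called between PTX+ABT263 and Control (17 higher), 125 by DESeq2 (100 higher), 238 with total counts (17 higher), 370 with no filter and 100 thinned, and between PTX and Control 38, 102, 63, 371 and 123. DESeq2 gave no adjusted p for 12559 of 14395 genes in the former comparison and for 8652 in the latter. Its counts and shares are thus over fewer genes than those of edgeR. In the whole section the counts between PTX+ABT263 and Control were 33, 76, 45, 498 and 31, with no DESeq2 adjusted p for 2263 genes. Leaving out 1 section in the isocortex gave 0 (without PTX section 2) to 165 (without Control section 2) between PTX and Control, 18 (without PTX+ABT263 section 2) to 125 (without Control section 2) between PTX+ABT263 and Control, 9 (without PTX section 1) to 55 (without Control section 1) between PTX+ABT263 and PTX, 0 to 97 (without Control section 2) between PTX+GCV and Control, 0 to 13 between PTX+GCV and PTX, and 53 to 312 for any difference. In the whole section these ranges were 0 to 78, 15 to 43, 12 to 65, 0 to 16, 0 to 50 and 41 to 185. With total counts the median log2 difference of all genes was -0.13 against Control in the isocortex.

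Same-numbered sections did not deviate together (correlations of deviations -0.119 to 0.086), so numbers do not pair them. The replicate block left the members called at 1 in the comparisons of PTX+ABT263 and at 0 elsewhere, and gave 42 genes against Control and 27 against PTX in the isocortex. All spots under tissue could not be run for the isocortex, since spots left out had no cluster. The area with the highest level was the same for 9 of 10 members at resolution 0.3 and for 5 of 10 when areas were thinned to 40334 UMIs. With 2 sections a group and 11 to 33 habenula spots a section, small differences were not detectable.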
